A study of Mus musculus with 6 samples.

Results

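Genes of the sarcomeric thin filament were examined in C2C12 cells, a mouse C3H myoblast line that differentiates into myotubes when serum is lowered. They were 10 genes, chosen by gene symbol: the slow troponins TNNI1, TNNT1 and TNNC1, the fast troponins TNNI2, TNNT3 and TNNC2, the tropomyosins TPM1 and TPM2, and the sarcomeric actins ACTA1 and ACTC1. All 10 were on the array, as 42 probes in 84 spots, of 1521 genes, 2688 probes and 5376 spots in all. Each of the 6 arrays, of 2 colours, carried RNA of the MyoD-silenced clone MyoD(-)cl.A8 in one dye and RNA of C2C12 control cells in the other, after 1, 3 or 6 days of differentiation in DMEM with 2% horse serum. MyoD is the transcription factor that commits cells to muscle. The clone had been transfected with the mouse MyoD transcript in antisense orientation in pcDNA 3.0 and selected with G-418; it is 1 clone, and the labels name no empty vector in the control cells. The 2 arrays of a day had the dyes exchanged, with the clone in Cy5 on replicate A and in Cy3 on replicate B. They compared the same pair of RNAs as far as the labels say, so they count as 1 replicate and n = 3 days.

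The thin filament is a polymer of sarcomeric actin with tropomyosin lying along it and a troponin complex bound to each tropomyosin. Troponin C binds calcium, troponin I holds back the interaction of actin and myosin at rest, and troponin T ties the complex to tropomyosin. Slow and fast muscle fibres use different genes for each troponin subunit, and the slow TNNC1 is also the troponin C of the heart. ACTA1 is the main actin of adult skeletal muscle, while ACTC1, the main actin of the heart, is also made in early skeletal muscle and in young myotubes.

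The deposited value of a spot is a score. Neither its scale nor its centring nor its sign is defined by the labels, so differences are given in score units and not as folds. Scores above 0 are read as more RNA in the clone. That direction is likely but not settled: the labels mark the clone's channel as Test and the control's as Reference. Dye-swapped arrays of a day correlated positively. A shared orientation of these arrays was read from this and was not tested. Arrays of different days correlated at -0.08 to 0.12 over features. Neither correlation can tell which sign means more RNA in the clone. A score compares clone with control and is not a level: scores of different genes do not order their abundance, and the muscle identity of the cells could not be checked from levels. A score over a culture also cannot tell fewer differentiated cells from less RNA per cell. Over all spots the SD of an array lay between 1.41 and 1.62, duplicate spots correlated at 0.25 to 0.60, and arrays of the same day correlated at 0.16 to 0.21 over features. The array was made with human probes, so gene names are those of human genes, and which mouse RNA each probe bound was not tested. MYOD1 itself stood at 0.41 and -0.36 on day 1, 1.11 and -1.03 on day 3, and 0.50 and 0.26 on day 6, and since the antisense construct carries MyoD sequence this does not check the silencing. Of the skeletal muscle markers 6 of 12 were measured (DES, MYOD1, MYF6, CKM, MB and CHRNA1), with a median difference between day 6 and day 1 of 0.03. They went both ways: MB, myoglobin, went from 0.85 and -0.67 on day 1 to -4.01 and -1.22 on day 6 (difference -2.71, limma's adjusted p = 0.528), while CKM, the muscle creatine kinase, had a difference of 0.52 with both day 6 arrays above both day 1 arrays.

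MyoD binds the E-box, spelled CANNTG, and the promoters of mouse thin filament genes are shown for their E-boxes. RefSeq promoter sequences of build GRCm38.p6 were matched by symbol for 8 of the 10 genes, and the 250 bases before the first start listed for each gene were searched. An E-box reads the same on both strands. It was found in the window of 7 of these 8 genes, against 66.2% of all 32851 windows of that length. The sequences below run 5′ to 3′ on the strand of the gene, with E-boxes in capitals. Tnnt1, Tnnc2 and Acta1 are genes whose day 6 scores lay above their day 1 scores, and Tnni1 and Actc1 are genes whose scores did not.
Tnnt1: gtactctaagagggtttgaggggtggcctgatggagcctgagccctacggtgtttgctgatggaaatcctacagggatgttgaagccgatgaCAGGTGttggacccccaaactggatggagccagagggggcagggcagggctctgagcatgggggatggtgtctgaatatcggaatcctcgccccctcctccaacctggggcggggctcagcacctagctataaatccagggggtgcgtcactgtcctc
Tnnc2: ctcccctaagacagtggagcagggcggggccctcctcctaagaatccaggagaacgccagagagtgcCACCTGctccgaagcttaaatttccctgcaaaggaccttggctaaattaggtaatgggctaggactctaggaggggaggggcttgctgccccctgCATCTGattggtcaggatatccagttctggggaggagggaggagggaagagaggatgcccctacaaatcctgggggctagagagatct
Acta1: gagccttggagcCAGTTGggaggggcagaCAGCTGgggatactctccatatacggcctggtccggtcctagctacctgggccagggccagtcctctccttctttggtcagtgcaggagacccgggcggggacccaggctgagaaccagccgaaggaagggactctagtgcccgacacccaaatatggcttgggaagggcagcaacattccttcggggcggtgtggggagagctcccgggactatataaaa
Tnni1: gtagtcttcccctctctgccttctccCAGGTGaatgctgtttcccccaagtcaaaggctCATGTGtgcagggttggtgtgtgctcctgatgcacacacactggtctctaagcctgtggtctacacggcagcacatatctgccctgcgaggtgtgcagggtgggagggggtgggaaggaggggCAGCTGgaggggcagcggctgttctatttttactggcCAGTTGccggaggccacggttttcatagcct
Actc1: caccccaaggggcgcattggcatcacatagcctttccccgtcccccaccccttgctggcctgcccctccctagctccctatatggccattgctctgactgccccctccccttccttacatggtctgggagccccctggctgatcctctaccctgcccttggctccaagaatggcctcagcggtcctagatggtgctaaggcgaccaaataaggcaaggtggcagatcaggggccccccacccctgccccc

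These windows lie at chr7:4515976-4516225 (minus strand) for Tnnt1, chr2:164779735-164779984 (minus strand) for Tnnc2, chr8:123894776-123895025 (minus strand) for Acta1, chr1:135799171-135799420 (plus strand) for Tnni1 and chr2:114052876-114053125 (minus strand) for Actc1. Tnni1 had 4 E-boxes in its window, Tnnc1, Tnnc2 and Acta1 had 2 each, Tnnt1, Tpm1 and Tpm2 had 1 each, and Actc1 had 0. The MCAT motif CATTCC, searched on both strands and known as a site of TEAD factors, was in the windows of Tnnc1, Tpm1 and Acta1, against 12.6% of all windows. A CArG box, the site of serum response factor, was in those of the actins Acta1 and Actc1, against 1.47% of all windows. A match is a description of letters and no evidence of binding. Tnni2 and Tnnt3, which showed the largest troponin differences between days, are named only. In the mouse gene order of RefSeq they lie on chromosome 7 with 1 coding gene, Lsp1, between them.

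The first question was whether any of the genes differed between clone and control in the same direction throughout differentiation. None of the 10 passed limma's test on the 3 day means, where 9 of 2466 features passed (0.365%), and none had an unadjusted p under 0.05, against 164 features. Limma's adjusted p ranged from 0.837 to 0.998 over the 10 genes. The lowest belonged to ACTC1, whose score was above 0 on 5 of 6 arrays, with a mean of 0.68 ± 0.11 (SD, n = 3 days). That SD covers the day means only: the day 3 arrays read 1.70 and -0.26, and limma's SE of the mean was 0.43. The means of the other 9 genes lay between -0.19 for TNNC2 and 0.37 for TPM1. For most of them a mean near 0 came from scores below 0 on day 1 and above 0 on day 6, as the plot of the 10 genes by day shows.

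**Figure D1:**
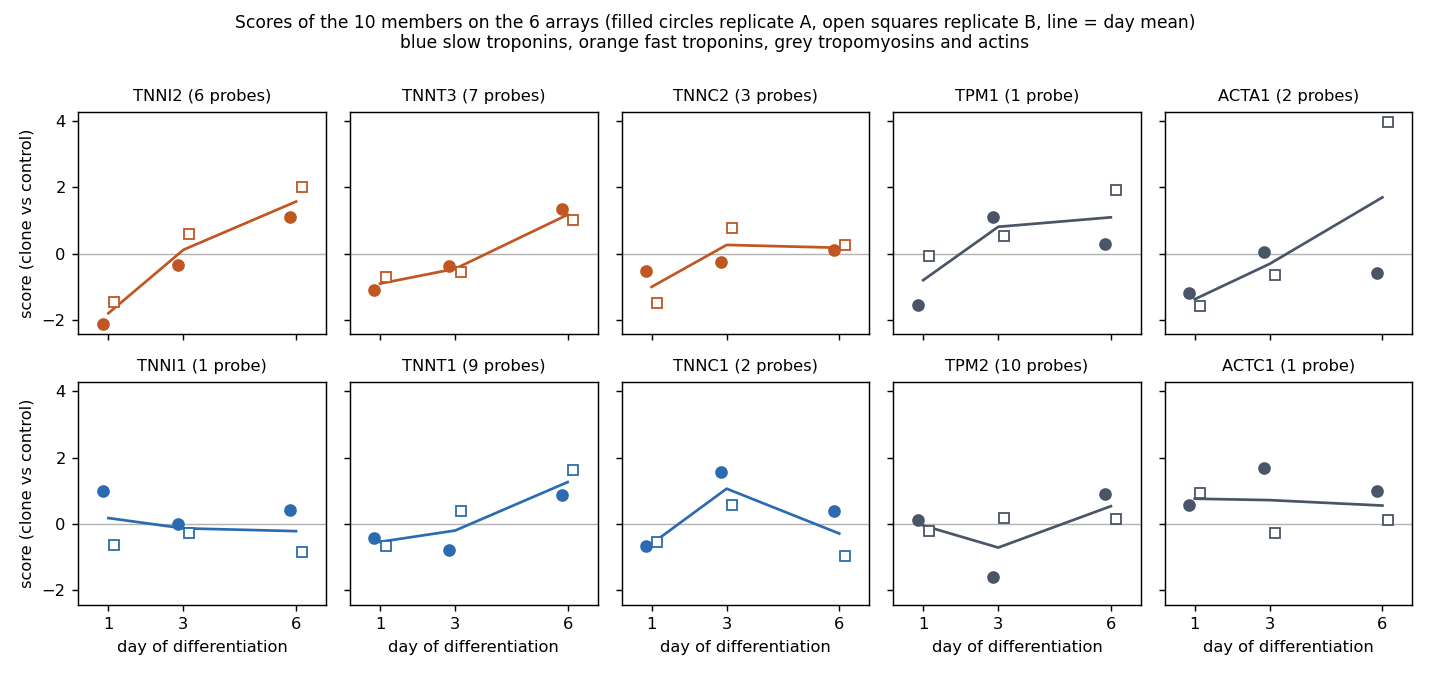
Score of each of the 10 genes (vertical axis, score units of clone against control) by day of differentiation (horizontal axis). Filled circles are replicate A and open squares replicate B, drawn side by side, and the line joins the day means. The day means of TNNI2 run from -1.80 through 0.11 to 1.57, while those of ACTC1 lie between 0.56 and 0.76.

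The second question was how the difference between clone and control moved between day 1 and day 6. In 7 of the 10 genes, TNNI2, TNNT3, TNNC2, TNNT1, TPM1, TPM2 and ACTA1, both day 6 arrays lay above both day 1 arrays. That order held for 497 of 2466 features (20.2%), and the opposite order for 484 features (19.6%) and for 0 of the 10 genes. The median difference of the 10 genes was 1.49, against 0.01 over all features. None of the 10 passed limma's test of day 6 against day 1 (lowest adjusted p = 0.258), which called 9 features (0.365%) and whose error holds only the spread between dye-swapped arrays. At an unadjusted p under 0.05 there were 3, namely TNNI2, TNNT3 and ACTA1, against 204 features (8.27%). For 15 features (0.608%) all 4 differences between a day 6 and a day 1 array reached 2 units upward, and TNNI2 was the 1 gene of the 10 among them. Downward there were 30 features (1.22%) and 0 of the 10 genes.

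**Figure D2:**
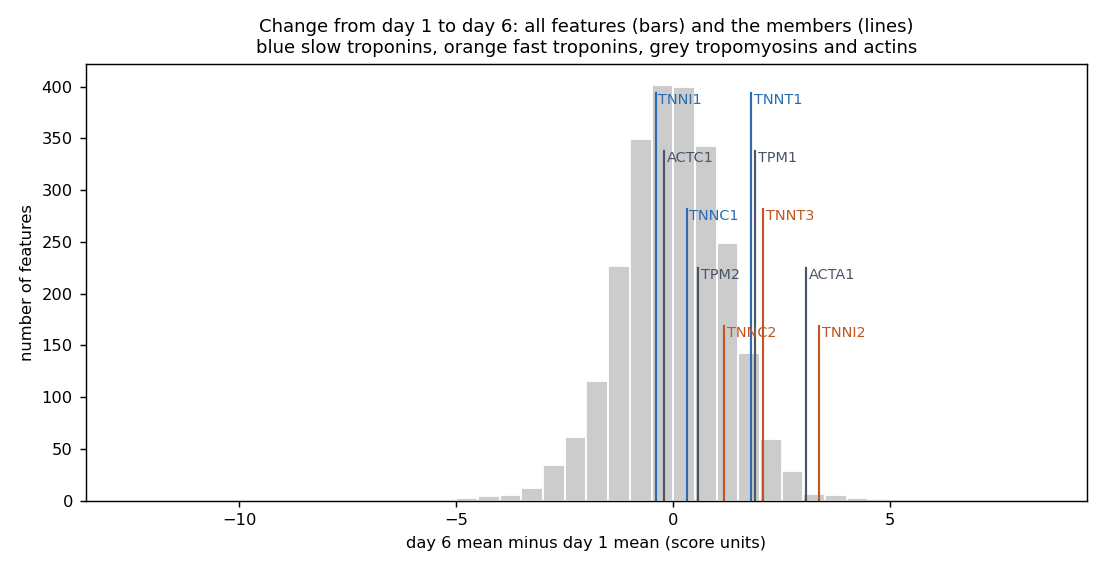
Difference between the day 6 and day 1 mean scores (horizontal axis, score units) for all 2466 features (grey bars, number of features on the vertical axis) and for the 10 genes (vertical lines of arbitrary height with their names). The lines of 8 genes lie above 0, with TNNI2 at 3.37 and ACTA1 at 3.07 farthest to the right, and those of TNNI1 (-0.39) and ACTC1 (-0.21) lie below it.

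TNNI2 (Entrez Gene 7136), the fast troponin I, scored -2.13 and -1.47 on day 1, -0.35 and 0.58 on day 3, and 1.12 and 2.02 on day 6. Its score was thus lower in the clone on both day 1 arrays, near 0 on day 3 and higher on both day 6 arrays, and the 3 days did not overlap. The difference from day 1 to day 6 was 3.37 (SE 0.90), the 13th highest of 2466 features, with limma's adjusted p = 0.258. The smallest of the 4 differences between arrays was 2.58 and the largest 4.15. On single days it did not pass limma's test against array spread either, with an adjusted p of 0.634 on day 1 and 0.354 on day 6. Among 760 genes that varied at least as much as the median gene, those with the most similar scores over the 6 arrays were SSU72 (Pearson's r = 0.95), ATOX1 (0.94) and MDH2 (0.94), ranked as a description over arrays that share their RNAs by day.

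TNNI2 had 6 probes, and on each of them both day 6 arrays lay above both day 1 arrays. Probe 6 stood at -3.34 and -3.03 on day 1, at -0.02 and 0.28 on day 3 and at 1.70 and 2.00 on day 6. Probe 5 stood at -2.48 and -3.52 on day 1, 1.00 and -0.73 on day 3, and 1.87 and 1.38 on day 6. With each probe tested on its own, both rose from day 1 to day 6 in limma, probe 6 by 5.03 (SE 0.92, adjusted p = 0.0131) and probe 5 by 4.63 (SE 0.98, adjusted p = 0.0381), in a test that called 15 of 2688 probes (0.558%). With a replicate block for dye orientation neither passed in limma (adjusted p = 0.066 and 0.0882). Probe 6 was also lower on day 1 (mean -3.18, limma's adjusted p = 0.0441, 0.16 with the replicate block), where 8 probes passed (0.298%). The differences of the other 4 probes ran from 1.78 to 2.99 and did not pass. Their day 1 means lay between -2.26 and -0.27, so the probes of TNNI2 differed in size more on day 1 than on day 6, where all 6 had means between 0.73 and 2.00. Duplicate spots differed by up to 3.00 on an array for probe 6 and by up to 1.24 for probe 5. Probes of a gene share their RNA and are not replicates, and any overlap of their sequences is unknown here.

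TNNI1 (Entrez Gene 7135), the slow troponin I, had 1 probe, in the first 40 spots, and stood at 1.00 and -0.64 on day 1, 0.01 and -0.27 on day 3, and 0.42 and -0.85 on day 6. Replicate A was above replicate B on every day, and the days overlapped. Its difference from day 1 to day 6 was -0.39 (SE 0.95; limma's adjusted p = 0.934). It was 0.42 without the day 1 replicate A and 0.24 without the day 6 replicate B.

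TNNT3 (Entrez Gene 7140), the fast troponin T, stood at -1.09 and -0.72 on day 1, at -0.36 and -0.56 on day 3 and at 1.34 and 1.00 on day 6. Its scores were below 0 on all 4 arrays of days 1 and 3 and above 0 on both day 6 arrays. The difference from day 1 to day 6 was 2.08 (SE 0.87; limma's adjusted p = 0.569). On each of its 7 probes both day 6 arrays lay above both day 1 arrays, with differences from 0.89 to 2.95. Probe 7 was highest on day 6, at 2.22 and 2.73.

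TNNT1 (Entrez Gene 7138), the slow troponin T, stood at -0.42 and -0.66 on day 1, at -0.78 and 0.38 on day 3 and at 0.88 and 1.64 on day 6. The 2 day 6 arrays were the highest of the 6, while day 3 overlapped day 1. Its difference was 1.80 (SE 0.90; limma's adjusted p = 0.619). It had 9 probes, all with a higher mean on day 6 than on day 1, by 0.63 to 3.89, and on 7 of them the arrays of these days did not overlap. Probe 8 had the largest difference, from a mean of -1.45 on day 1 to 1.54 and 3.35 on day 6, and probe 2 stood at 2.18 and 2.77 on day 6. The day means of TNNT1 and TNNT3 had the same order, but day 3 of TNNT3 lay above both its day 1 arrays. On the day 3 replicate A the neighbours of the TNNT1 probes had a median of -0.86, and those of the TNNT3 probes 0.15. The neighbours of a probe were up to 10 probes, every other one before and after it in the order of spot numbers. The layout of the spots on the slide was not used, so array position here means spot number. Neither the difference between the genes nor the part of array position in it was tested.

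TNNC2 (Entrez Gene 7125), the fast troponin C, stood at -0.53 and -1.48 on day 1, at -0.26 and 0.78 on day 3 and at 0.10 and 0.25 on day 6. Day 3 and day 6 overlapped, and both lay above day 1. The difference from day 1 to day 6 was 1.18 (SE 0.90; limma's adjusted p = 0.761). All 3 of its probes had a higher mean on day 6, by 0.81 to 1.84.

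TNNC1 (Entrez Gene 7134), the troponin C of slow muscle and heart, stood at -0.66 and -0.53 on day 1, at 1.56 and 0.56 on day 3 and at 0.39 and -0.97 on day 6. It was highest on day 3, and day 6 overlapped day 1. Its difference from day 1 to day 6 was 0.31 (SE 0.92; limma's adjusted p = 0.948), the mean of 2 probes with opposite differences. Probe 1 stood at 2.96 and -0.33 on day 6 and probe 2 at -2.18 and -1.61, while on day 3 both were above 0 on both arrays. Probe 1 lies in the first 40 spots of the array, where 4 of 20 probes exceeded 2 on the day 6 replicate A (5.77% of all probes) and 5 of 20 on replicate B (5.80%), against 0 of 20 on each other array. Probe 1 of TNNC1 is itself among the 4, and probes 1 of ACTA1 and TNNT1 are among the 5. The median of the 20 probes was -0.03 on the day 6 replicate A and 0.19 on replicate B. Without the first 40 spots the difference of TNNC1 was -1.15.

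The probes are shown together in the plot of day 1 and day 6 means. Of the 42 probes 29 had both day 6 arrays above both day 1 arrays, or 69.0%, against 20.9% of all 2688 probes, and 35 had a higher mean on day 6 (83.3%, against 51.1%). Probes of a gene share its RNA, so these shares rest mostly on TNNI2, TNNT3 and TNNT1, which held 20 of the 29. In the muscle genes CKM, MYL3 and MYH7, which also had many probes, the order held for 4 of 11, 4 of 7 and 1 of 5. All 4 differences reached 2 units upward on 29 probes (1.08%), among them 3 of TNNI2, 1 of TNNT1 and 1 of TNNT3. Both day 1 arrays were at least 2 units below 0 on 11 probes (0.409%), of which 2 were of TNNI2. Both day 6 arrays were at least 2 above 0 on 25 probes (0.93%), of which 1 was of TNNT1 and 1 of TNNT3. Among the neighbouring probes, taken by spot number as above, the median difference was 0.22 for the probes of TNNI2, 0.17 for TNNT3 and 0.13 for TNNT1.

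**Figure D3:**
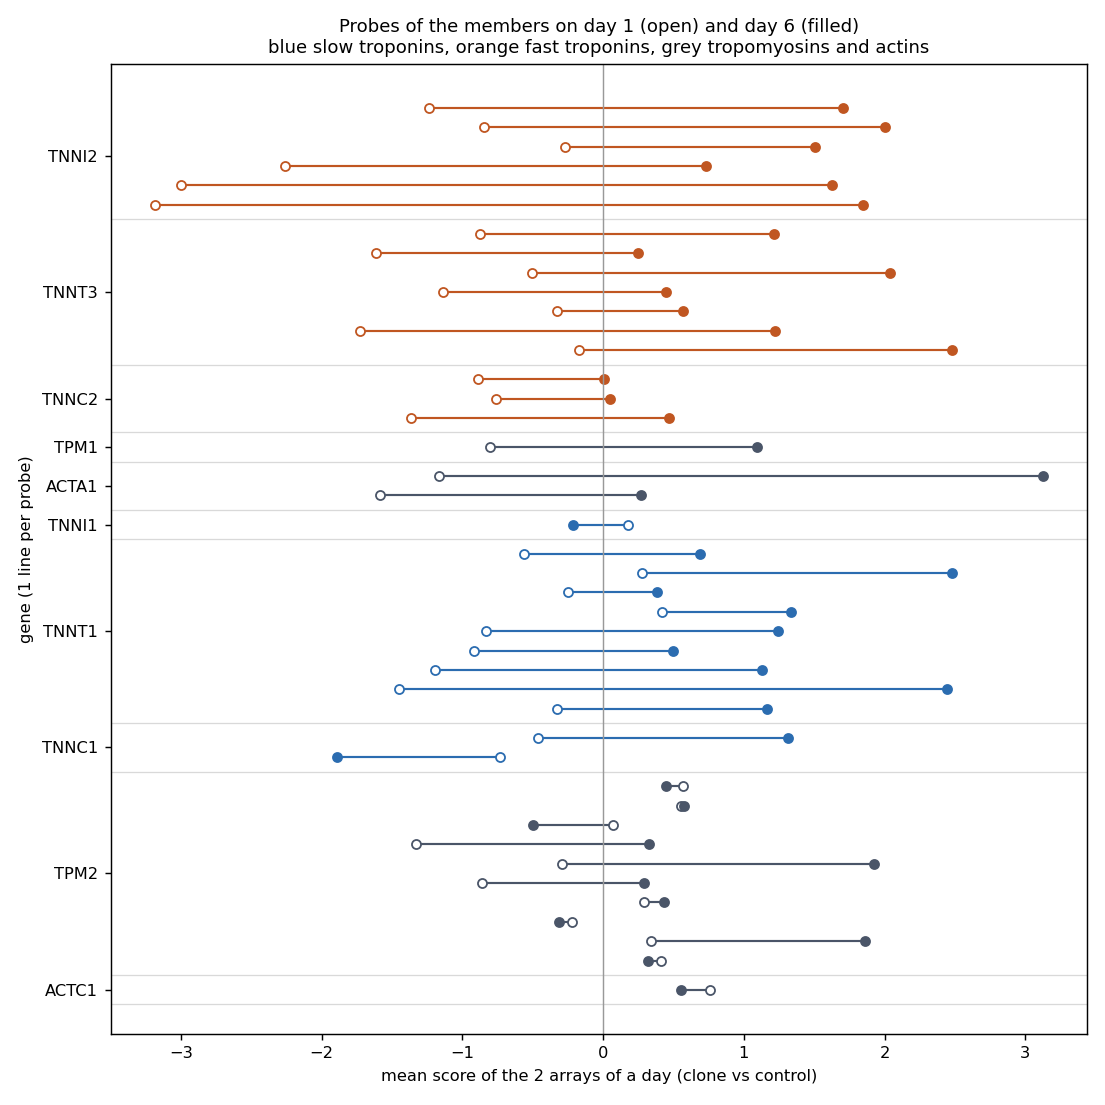
Mean score of the 2 arrays of day 1 (open circles) and day 6 (filled circles) for each of the 42 probes (1 line each, grouped by gene on the vertical axis; horizontal axis in score units). Every probe of TNNI2, TNNT3 and TNNT1 has its filled circle to the right, whereas 6 of 10 probes of TPM2 and 1 of 2 probes of TNNC1 do.

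TPM1 (Entrez Gene 7168), alpha-tropomyosin, had 1 probe, at -1.54 and -0.07 on day 1, 1.09 and 0.53 on day 3 and 0.28 and 1.91 on day 6. All 4 later arrays were above 0 and both day 1 arrays below it. The duplicate spots of this probe differed by up to 5.23 on an array, with a median of 0.68 over the arrays. The difference from day 1 to day 6 was 1.90 (SE 0.96; limma's adjusted p = 0.619). The median of its 10 neighbouring probes also differed, by 1.14, and with the neighbours subtracted the difference was 0.78. The part of array position in this value was not tested.

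TPM2 (Entrez Gene 7169), beta-tropomyosin, stood at 0.12 and -0.21 on day 1, at -1.61 and 0.18 on day 3 and at 0.92 and 0.15 on day 6. Day 6 lay above day 1 by as little as 0.04 on the closest arrays, and the day 3 replicate A was the low array. Its difference from day 1 to day 6 was 0.58 (SE 0.94; limma's adjusted p = 0.895). On the day 3 replicate A 9 of its 10 probes were below 0, with a median of -1.71 and a range of -3.96 to 0.45. On replicate B of the same day the median was -0.14, with 6 of 10 below 0 and 1 probe at 5.07. On that replicate A the neighbouring probes had a median of -0.14 over the 10 probes, but they were low around 3 of the lowest 4: probe 7 at -3.96 (neighbours -1.22), probe 5 at -3.10 (neighbours -2.01) and probe 8 at -2.46 (neighbours -2.41). The part of array position in these values was not tested.

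ACTA1 (Entrez Gene 58), the skeletal alpha-actin, scored -1.18 and -1.57 on day 1, 0.04 and -0.65 on day 3 and at -0.58 and 3.97 on day 6. Both day 1 arrays were the lowest of the 6, and the day 6 arrays were far apart. Its difference of 3.07 (SE 1.21; limma's adjusted p = 0.534) rested on the day 6 replicate B: it was 0.79 without that array and 5.35 without the day 6 replicate A, when it passed (limma's adjusted p = 0.0232, with the lone day 6 array assumed to vary like the others). Probe 1, in the first 40 spots, read 7.35 on the day 6 replicate B and -1.10 on replicate A. Its duplicate spots differed by up to 4.98 on an array. Probe 2, elsewhere on the array, stood at -1.49 and -1.69 on day 1 and at -0.07 and 0.60 on day 6, a difference of 1.85 with no overlap.

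ACTC1 (Entrez Gene 70), the cardiac alpha-actin, had 1 probe, at 0.58 and 0.95 on day 1, 1.70 and -0.26 on day 3, and 0.99 and 0.12 on day 6. The day means of 0.76, 0.72 and 0.56 differed by less than the spread between the arrays of a day. Its difference from day 1 to day 6 was -0.21 (SE 0.95; limma's adjusted p = 0.969). The actins therefore stood on opposite sides of 0 on day 1, where both ACTA1 arrays were below and both ACTC1 arrays above it; the difference between these genes was not tested. The scores most similar to those of ACTC1 over the 6 arrays were those of RPN2 (Pearson's r = 0.92), USF2 (0.89) and EIF3L (0.88), by the same ranking. ACTG1, the cytoplasmic gamma-actin and the 1 measured of 4 listed actins outside the sarcomere, stood at -0.98 and -1.03 on day 1, -0.71 and -1.43 on day 3 and 0.31 and -0.88 on day 6.

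On single days none of the 10 genes passed limma's test against array spread, which called 6 features on day 1 (0.243%), 8 on day 3 (0.324%) and 7 on day 6 (0.284%). The lowest adjusted p among the 10 were 0.634, 0.664 and 0.354 in limma. At an unadjusted p under 0.05 in limma, TNNI2 was the 1 gene of the 10 on day 1, against 6.16% of all features. It was also the 1 gene on day 6, against 11.1% of features, and on day 3 there were 0, against 9.57%. None had both arrays of a day at least 2 units from 0 on one side, as 20 features did on day 1 (0.811%), 31 on day 3 (1.26%) and 45 on day 6 (1.82%).

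Slow and fast isoforms were then compared within each array, where the mean score of the 3 fast troponins was subtracted from that of the 3 slow ones. The slow minus fast difference was 1.23 and 0.61 on the day 1 arrays, 0.59 and -0.04 on day 3 and -0.29 and -1.15 on day 6. It was above 0 on both day 1 arrays and below 0 on both day 6 arrays, with day means of 0.92, 0.27 and -0.72. Fast troponins went from means of -1.25 and -1.22 on day 1 to 0.85 and 1.09 on day 6, and slow troponins from -0.03 and -0.61 to 0.56 and -0.06. With 3 days an exact two-sided sign permutation test cannot go below p = 0.25, and no test was made.

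By subunit the span was widest in troponin I. TNNI1 minus TNNI2 was 3.13 and 0.83 on day 1, 0.36 and -0.85 on day 3 and -0.70 and -2.87 on day 6. Its day 6 mean minus its day 1 mean was -3.76. TNNT1 minus TNNT3 was 0.68 and 0.06 on day 1, -0.42 and 0.94 on day 3 and -0.46 and 0.64 on day 6, and its day means of 0.37, 0.26 and 0.09 differed by less than the spread between arrays. TNNC1 minus TNNC2 was -0.13 and 0.94 on day 1, 1.82 and -0.21 on day 3, and 0.29 and -1.22 on day 6, so its days overlapped. The troponin I value rests on 1 probe for TNNI1, which lies in the first 40 spots of the array. Without those spots TNNI1 was not measured, and slow minus fast, then of TNNT1 and TNNC1 against the fast troponins, was 0.60, 0.56 and -1.25 on the 3 days.

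**Figure D4:**
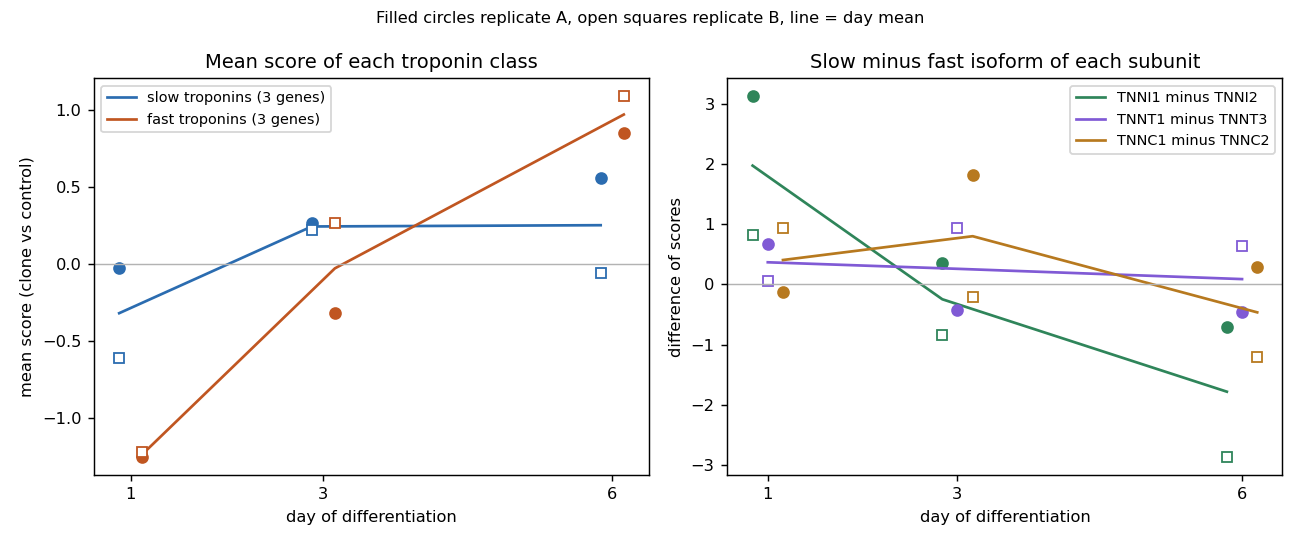
Left, mean score of the 3 slow and the 3 fast troponins (vertical axis, score units) by day of differentiation; right, slow minus fast isoform of each subunit (vertical axis, difference of scores) by day. Filled circles are replicate A, open squares replicate B, lines join day means and points of a day are drawn side by side; the fast class crosses from -1.25 and -1.22 to 0.85 and 1.09, and of the 3 subunits TNNI1 minus TNNI2 has the widest span.

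Fibre type genes outside the troponins were set beside them. Of 8 measured slow fibre genes (MYH7, MYL2, MYL3, MYBPC1, ATP2A2, CASQ2, MYOZ2 and CSRP3), 3 had both day 6 arrays above both day 1 arrays and 1 had them below, with a median difference of 0.32, against 20.2% of all features above and 19.6% below. Of 7 measured fast fibre genes (MYH1, MYH2, MYL11, MYBPC2, CASQ1, ACTN3 and MYOZ1), 2 did and 0 had them below, with a median of 0.69, a share close to that of all features. These 2 were MYL11, the fast regulatory myosin light chain (day means -2.31, 0.96 and 0.37), and ACTN3, the fast-fibre alpha-actinin (day means -0.23, -0.54 and 1.65). None of the 15 passed limma's test for the shared difference or for day 6 against day 1. With the troponins included, 11 slow minus 10 fast fibre genes gave 0.21, -0.16 and -0.62 on the 3 days, a smaller span than for the troponins alone. On day 3 the slow myosin MYH7 had a mean score of -3.66, which differed from 0 in limma (adjusted p = 0.0145) but not with the replicate block (0.0682). Its difference from day 1 to day 3, -3.47, did not pass (limma's adjusted p = 0.448). The slow troponins averaged 0.26 and 0.22 on the arrays of that day.

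Of 20 other genes of the thin filament 9 were measured, and 5 of them had both day 6 arrays above both day 1 arrays and 1, TMOD4, below, with a median difference of 0.73, again against 20.2% and 19.6% of all features. KLHL41, a kelch protein that stabilises nebulin, stood at -1.13 and 0.005 on day 1, at -1.68 and -0.94 on day 3 and at 1.62 and 2.73 on day 6. Its day 6 arrays were thus apart from the other 4, with a difference of 2.74 (SE 0.92; limma's adjusted p = 0.477). KLHL40, a related stabiliser of thin filament proteins, had a difference of 2.09, the actin-severing cofilin CFL2 1.69, the pointed-end cap TMOD1 1.23 and nebulin, NEB, 0.73. The cardiac troponin I gene TNNI3, whose mouse gene lies next to Tnnt1 on chromosome 7, had a difference of -0.94 and was above 0 on 5 of 6 arrays. None of the 9 passed in limma (adjusted p from 0.477 to 0.899).

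Markers of other cell types were few. Of smooth muscle markers 2 of 5 were measured, and TAGLN and CNN1 also had both day 6 arrays above both day 1 arrays, with differences of 0.82 and 2.09. That order held for 20.2% of all features, and for TAGLN the closest arrays differed by only 0.0047. The fibroblast markers VIM and FN1 (2 of 6 measured) had differences of -0.24 and -0.63, and the adipocyte markers FABP4 and SCD (2 of 4) had -1.12 and -0.08. Of cardiac markers 1 of 4, TNNI3, was measured. Their part in the differences of the thin filament genes was not tested.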

How the data were processed

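Total RNA of the MyoD-silenced C2C12 clone and of control cells (Trizol) was reverse transcribed, labelled by tyramide signal amplification and hybridised in pairs to 6 arrays with 2 dyes, per the labels' protocols. The deposited values, made by the authors, are a score per spot. For scale, centring and filters the sources used here give nothing; the largest absolute value, 21.6, is too high for log2 ratios, so no log scale was assumed. A difference of 2 score units takes the place of a fold threshold. Signal over background is not known, as intensities were not used here. Precision is limited by the number of arrays.

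Duplicate spots were averaged to 2688 probes, probes to genes, and the 2466 features (1521 genes and the unnamed probes) centred on each array's median. All fits used limma 3.58.1 in R 4.3.3 with Benjamini-Hochberg adjustment over all features and a threshold of 0.05. The shared difference was an intercept on the 3 day means. Differences on and between days came from a fit of 6 arrays with days as coefficients, whose p-values measure only the spread between dye-swapped arrays of 1 RNA pair, which is technical. Simulated data with independent normal errors of the fitted size checked only that the fits call planted differences. They held no effect of the RNA pair or of array position, so they cannot test for these. Replicate letters mark dye orientation: deviations of arrays with the same letter correlated at -0.04 to -0.00, so the letters pair nothing. Genes were named from a platform annotation table. The genes, gene lists and thresholds were chosen with earlier results of these data known. Every gene of the rule, every measured gene of the lists and the 3 most similar genes of TNNI2 and ACTC1 are named by rule; single probes and the comparison genes CKM, MYL3 and MYH7 with many probes were singled out after their values were seen. Plots and the promoter search used Python 3.11.15, plots with matplotlib 3.10.9.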

Additional observations from a re-analysis of the deposited data

Results flagged for a closer look

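The following differences are listed because both arrays of one day lay on one side of 0 and both arrays of another day on the other. From day 1 to day 6 these were TNNI2 (3.37, limma's adjusted p = 0.258), TNNT3 (2.08, 0.569), TPM1 (1.90, 0.619), TNNT1 (1.80, 0.619) and TNNC2 (1.18, 0.761). TNNC1 (1.66, limma's adjusted p = 0.70) and TPM1 (1.61, 0.717) met the same condition from day 1 to day 3, and TNNT3 (1.63, 0.644) from day 3 to day 6. Differences between isoforms on day 6 and day 1 were -1.64 for slow minus fast troponins and -3.76 for TNNI1 minus TNNI2. For 11 slow minus 10 fast fibre genes they were -0.37 from day 1 to day 3 and -0.83 from day 1 to day 6. These differences between isoforms were not tested.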

How the results depend on the processing

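Over 13 alternatives each, which include leaving out each array in turn, the day 6 minus day 1 difference stayed above 0 for TNNI2 (2.92 to 3.82), TNNT3 (1.89 to 2.27), TNNT1 (1.42 to 2.18), TNNC2 (0.71 to 1.65), TPM1 (0.78 to 2.71), TPM2 (0.07 to 0.96) and ACTA1 (0.79 to 5.35). In these genes both day 6 arrays lay above both day 1 arrays, so leaving out an array could not change the sign. The replicate block and leaving out a day 3 array could not alter the difference at all. With an array left out the difference ran from -1.21 to 0.42 for TNNI1, -0.37 to 0.99 for TNNC1 and -0.64 to 0.23 for ACTC1. Means over the days had no stable sign with an array or day left out for TNNI1 (-0.33 to 0.22), TNNT1 (-0.37 to 0.53), TNNC1 (-0.44 to 0.39), TNNI2 (-0.84 to 0.84), TNNT3 (-0.68 to 0.36), TNNC2 (-0.41 to 0.22), TPM2 (-0.38 to 0.24) and ACTA1 (-0.84 to 0.76). The mean of ACTA1 was -0.088 with scale normalization, -0.010 with genes only and -0.52 without the first 40 spots, an alternative chosen after seeing the data, under which TNNC1 had a mean of -0.44 and a difference of -1.15. With neighbouring probes subtracted the means of TNNI2 and TNNT3 were 0.017 and 0.0063. The cause of these sign changes was not tested.

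With separate probes, 1 of the 10 genes (TNNI2) passed in limma for day 6 against day 1 and 1 on day 1, 3 (TNNI2, TNNT1 and TNNT3) had a probe with all 4 differences of at least 2 units, 1 had a probe with both arrays past 2 units on day 1 and 2 on day 6. A gene counted there if any of its probes did. Of all 2688 probes these conditions held, in the same order, for 15, 8, 29, 26 and 62. With thresholds of 1 and 1.5 units, 3 and 2 genes had all 4 differences past them, against 106 and 46 of 2466 features. At 1 unit 2 genes had both arrays past it on day 1 and 2 on day 6, against 177 and 268 features. Leaving out an array, 0 to 1 genes passed for day 6 against day 1 and 0 to 1 on day 6, the 1 being ACTA1 without the day 6 replicate A. The genes with all differences of at least 2 then numbered 1 to 3, those past 2 units on day 1 0 to 1 and on day 6 0 to 2. These conditions are looser when an array of the day is left out, since fewer values must pass. All differences then reached 2 upward for 68 and 102 features without a day 1 array. Without a day 6 array they did for 107 and 88, against 15 with all arrays. Features past 2 units then numbered 154 and 136 on day 1 (20 with all arrays) and 236 and 249 on day 6 (45). Slow minus fast was 1.98, -0.25 and -1.78 on the 3 days for TNNI1 against TNNI2 alone, a difference of -3.76. With all fibre genes it was 0.21 on day 1, with a difference of -0.83. Its day 3 value ran from -0.04 to 0.59 with an array left out. Without the first 40 spots, which removes TNNI1 and 1 probe each of TNNC1 and TNNT1, it was 0.60, 0.56 and -1.25 on the 3 days, a difference of -1.85.

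The replicate block for dye orientation left 0 of the 10 genes passing on or between days, and lowered the features passing from 9 to 5 for the shared difference and for day 6 against day 1, from 6 to 2 on day 1, from 8 to 4 on day 3 and from 7 to 1 on day 6. Over all alternatives these counts ran from 0 to 29, 0 to 28, 0 to 11, 4 to 19 and 0 to 20. The features with all differences of at least 2 upward ran from 14 to 107, and those past 2 units on both arrays from 17 to 177 on day 1, 23 to 216 on day 3 and 36 to 268 on day 6.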
